A study of Mus musculus with 9 samples.

Results

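Binding of PPARγ was described at the genes of both REV-ERB receptors, Nr1d1 and Nr1d2, in interscapular brown adipose tissue (iBAT). The peaks were chosen by position alone: every peak of the count table whose midpoint lay on mouse chromosome 11 between 98.75 and 98.8 Mb (the Nr1d1 window) or on chromosome 14 between 18.17 and 18.28 Mb (the Nr1d2 window) of mm10 (GRCm38) was taken. These windows hold 18 of the 66066 peaks, 12 at Nr1d1 and 6 at Nr1d2. Chromatin immunoprecipitation with sequencing (ChIP-seq) was done on tissue of male C57BL/6J mice aged 10 weeks, wild-type inbred animals in every group, fed chow and kept at a 12-h light and 12-h dark cycle in mild cold. Tissue was taken every 3 h from ZT0, the onset of the light (inactive) phase, to ZT21, so that time is the only labelled difference between the 8 groups. Each of the 8 time points is 1 library made from the pooled tissue of several mice, without a replicate. The spread between mice or preparations therefore could not be estimated, and every test below rests on the order of the 8 libraries in time. A difference between single time points cannot be told apart from one between pools or preparations.

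REV-ERBα (Nr1d1) and REV-ERBβ (Nr1d2) are nuclear receptors that repress transcription through the corepressor NCoR and the histone deacetylase HDAC3, and they form the arm of the circadian clock that silences Arntl (BMAL1). CLOCK and BMAL1 activate both REV-ERB genes through E-boxes, while PAR-bZIP factors such as DBP act through D-boxes. In brown fat, REV-ERBα is known as a repressor of thermogenic genes, and Nr1d1 is a known target of PPARγ in cultured adipocytes. PPARγ itself pairs with retinoid X receptors and typically occupies a direct repeat of the half-site AGGTCA spaced by 1 base (DR1). Nr1d1 is transcribed against the thyroid hormone receptor gene Thra, and the ends of both genes overlap.

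The peaks together received from 29572225 to 34264812 reads in a library, a 1.16-fold span. Normalized counts are the deposited counts scaled to the median library, after edgeR's TMM factors (0.959 to 1.04) were applied to the totals, and they are a level of binding per peak, not per length. Of the brown adipocyte genes, 5 of 6 had a peak within 10 kb of the start site (Ucp1, Cidea, Ppargc1a, Dio2 and Elovl3, not Prdm16), with mean normalized counts of the strongest peak from 442 to 10490. The 3 adipocyte genes Adipoq, Fabp4 and Plin1 all had one. Of 5 genes of other cell types (Ptprc, Adgre1, Myh4, Ckm and Cdh5), only the endothelial gene Cdh5 had a peak, of at most 128 normalized counts on average. In tissue of this kind, a smaller share of brown adipocytes and less binding per cell cannot be told apart.

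Within each window the peaks are numbered from the lowest coordinate upwards. Both genes lie on the reverse strand, so that low numbers lie downstream of the start site. Nr1d1 (gene ID 217166) spans chr11:98767932-98775377 with 8 exons, and Nr1d2 (gene ID 353187) spans chr14:18204056-18239106, also with 8 exons. The start site of Nr1d1 lies inside peak 7 (chr11:98771749-98778246, 6498 bases), and that of Nr1d2 inside peak 5 (chr14:18236943-18239751, 2809 bases). The 250 bases before each start site, which these peaks cover, are shown from RefSeq (GRCm38.p6, reverse strand), as these promoters lie inside the strongest peak of each locus. The counts do not show where within a peak binding was strongest. Capitals mark an exact AGGTCA half-site.
Nr1d1, chr11:98775378-98775627: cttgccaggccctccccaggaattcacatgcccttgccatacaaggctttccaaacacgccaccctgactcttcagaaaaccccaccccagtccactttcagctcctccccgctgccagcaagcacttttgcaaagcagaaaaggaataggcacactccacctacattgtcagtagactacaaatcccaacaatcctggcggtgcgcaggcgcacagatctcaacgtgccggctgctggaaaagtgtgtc
Nr1d2, chr14:18239107-18239356: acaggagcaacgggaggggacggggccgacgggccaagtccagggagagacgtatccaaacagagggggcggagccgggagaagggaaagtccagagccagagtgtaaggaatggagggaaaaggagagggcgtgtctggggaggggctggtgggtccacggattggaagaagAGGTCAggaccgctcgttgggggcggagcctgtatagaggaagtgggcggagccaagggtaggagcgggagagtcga
The Nr1d2 promoter holds 1 half-site, from 77 to 72 bases before the start, and the Nr1d1 promoter none; a half-site on either strand was present in 16.3% of the 32851 RefSeq promoters of 300 bases. Neither promoter, with the 50 bases after the start included in the search, holds an E-box (CACGTG, in 7.15% of promoters), a D-box (TTATGTAA or TTACGTAA on either strand, in 1.06%), a DR1 (AGGTCANAGGTCA, up to 2 mismatches among its 12 fixed bases, in 3.86%) or a direct repeat spaced by 2 bases (AGGTCANNAGGTCA, up to 2 mismatches, in 2.99%).

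E-boxes and D-boxes were found further inside the start-site peaks. Peak 7 of Nr1d1 holds 5 E-boxes, a number that 0.982% of peaks with 80% to 125% of its length reach, and 1 D-box, which 30.1% of these hold. Of the E-boxes, 4 lie in intron 1 of Nr1d1 and 1 lies upstream of the gene. Peak 5 of Nr1d2 holds 3 E-boxes (2.39% of peaks of like length hold as many) and 2 D-boxes (1.54%), all in intron 1 of Nr1d2. These sites are printed because they are the elements through which the clock is known to act on both genes, and because they lie under the strongest PPARγ peaks; they are given on the forward strand of GRCm38 with 8 bases on either side, and capitals mark the E-box or D-box.
Nr1d1 E-box, chr11:98773038-98773043: tcctcagaCACGTGtgtgaggt
Nr1d1 E-box, chr11:98773859-98773864: ccccactcCACGTGtgcccctc
Nr1d1 E-box, chr11:98773874-98773879: gcccctcgCACGTGgcacccca
Nr1d1 E-box, chr11:98774154-98774159: aaatgcagCACGTGggcccggc
Nr1d1 E-box, chr11:98775695-98775700: gagagcttCACGTGattggaga
Nr1d1 D-box, chr11:98774080-98774087: ggagctcaTTATGTAAcgaggccg
Nr1d2 E-box, chr14:18238525-18238530: accgccccCACGTGttcctccg
Nr1d2 E-box, chr14:18238570-18238575: cgcggcctCACGTGtctccgcc
Nr1d2 E-box, chr14:18238673-18238678: acaccgtgCACGTGgccagtgc
Nr1d2 D-box, chr14:18238105-18238112: taaaagttTTACGTAAggttctga
Nr1d2 D-box, chr14:18238603-18238610: agctcgcaTTATGTAAtgctgcgt
Over both windows, 6 of the 18 peaks hold an E-box and 5 hold a D-box; among all peaks of like length, from the shortest to the longest of the 18, these shares run from 6.94% to 61.7% and from 2.89% to 30.1%, so that the counts are not set against a single background. A match is a description of the letters and does not show that a factor was bound.

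A DR1 with at most 2 mismatches was found in 4 of the 18 peaks, 3 at Nr1d1 and 1 at Nr1d2, compared with 23.6% of all peaks of any length on the assembled chromosomes. These 4 are shown because the DR1 is the element of the immunoprecipitated receptor. Capitals mark the element, the strand is the one on which it reads as AGGTCANAGGTCA, and mismatches give the base of the motif, its position from 1 at the 5′ end of the element, and the base of the site.
Nr1d1 peak 7, intron 1 of Nr1d1, chr11:98774285-98774297, reverse strand: gcgtgactGGGTCAGAGTTCAcaggggaa
Nr1d1 peak 4, end of Thra, chr11:98764941-98764953, forward strand: ttcccttcAGGCCACAGGTCTctacttcc
Nr1d1 peak 1, intron 1 of Thra, chr11:98749772-98749784, forward strand: aagccttaAGGACAAAGTTCAggggcccc
Nr1d2 peak 3, intron 1 of Nr1d2, chr14:18234766-18234778, forward strand: cattgaacAGGGCAGAGGTCAagagggtc
The site in Nr1d1 peak 7 has the mismatches A1G and G10T, that in peak 4 has T4C and A13T, and that in peak 1 has T4A and G10T. Nr1d2 peak 3 holds the closest match, with the single mismatch T4G, and 4.08% of peaks of like length hold one with at most 1 mismatch. The site of peak 7 lies 1086 bases downstream of the start site, and 70.3% of peaks as long as this one hold a DR1 by this definition.

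The question of the time course was whether binding at these genes oscillates over the day. At Nr1d1, binding was highest in the middle of the light phase and lowest in the dark phase over 5 adjacent peaks. These peaks, numbers 5 to 9, form an unbroken run. It reaches from intron 9 of Thra, beyond the end of Nr1d1, over the Nr1d1 start site to the intergenic region upstream. In these 5 peaks, the highest value was at ZT6 in each, and it exceeded the lowest value between 1.45 times in peak 9 and 3.29 times in peak 6. At Nr1d2, 0 of the 6 peaks met the same criterion, and the strongest of them changed 1.47-fold. Oscillation was called where JTK-cycle gave an exact adjusted P value under 0.05; it ranks the values against cosine waves of 21 or 24 h in 15 forms and corrects for that number. Over all peaks of the table this holds for 11.6%, with 5.96% having their LAG (the estimated time of the maximum, counted from ZT0) in the light phase and 5.67% in the dark phase. By this criterion 5 of 12 peaks of the Nr1d1 window oscillated, all 5 with a LAG in the light phase. With JTK-cycle, 0 of 6 did so in the Nr1d2 window, where 3 had a P value under 0.05 before the correction for 15 combinations. Before that correction 10 of 12 peaks of the Nr1d1 window were under 0.05, and 46.5% of all peaks were, so that 3 of 6 is close to the background. With 11.6% of all peaks called after the correction, 0 of 6 is also close to the background. It does not show that binding at Nr1d2 is level.

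The strongest peak of the Nr1d1 window was that of the start site, peak 7, centred 0.38 kb into the gene in exon 1. Only 0.124% of all peaks had a higher mean, and it held 37.3% of the mean normalized count of the window. Its normalized counts were 6896 (ZT0), 9064 (ZT3), 11244 (ZT6) and 9171 (ZT9) in the light phase and 6927 (ZT12), 4462 (ZT15), 4640 (ZT18) and 4936 (ZT21) in the dark phase. Binding was thus high from ZT3 to ZT9 and low throughout the dark phase after ZT12, and the values at ZT0 and ZT12 lay in between and close to each other. The 95% Wilson interval was 11042 to 11450 at ZT6 and 4335 to 4593 at ZT15, which covers counting error only. Highest over lowest was 2.52, a ratio reached by 3.98% of all peaks and by 0.391% of those with a mean of at least 1000 normalized counts. A 24-h cosine fitted to log2 normalized counts had an amplitude of 0.66 ± 0.044 (SE) and its maximum at 5.88 ± 0.257 h after ZT0. The edgeR quasi-likelihood test of the cosine gave an adjusted P value of 1.74e-05, and JTK-cycle gave 0.0260 with a LAG of 7.5 h. The JTK call was lost when the library of ZT3, ZT6, ZT9 or ZT12 was left out, each with an adjusted P value of 0.161.

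Upstream of the start site, peak 8 (chr11:98782172-98784492), an intergenic peak centred 7.96 kb before Nr1d1, had a larger daily range. Its normalized counts were 1599 (ZT0), 2722 (ZT3), 3578 (ZT6) and 3023 (ZT9) in the light phase and 1950 (ZT12), 1213 (ZT15), 1151 (ZT18) and 1332 (ZT21) in the dark phase. Every library from ZT3 to ZT9 lay above every other library. The lowest value, at ZT18, had an interval of 1085 to 1221 and the highest, at ZT6, one of 3465 to 3695, a ratio of 3.11. Amplitude was 0.83 ± 0.063 on the log2 scale and phase 6.34 ± 0.292 h, with adjusted P values of 1.74e-05 by the edgeR cosine and 0.00595 by JTK-cycle. This peak holds 1 E-box, at chr11:98783542-98783547, shown with its neighbouring bases because it lies in a strongly changing peak outside the promoter.
Nr1d1 peak 8 E-box: gggtggggCACGTGgccctgcc
An E-box is present in 32.7% of peaks of like length.

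Peak 9 (chr11:98784748-98787538) begins 255 bases beyond the end of peak 8, is nearer to the start site of Msl1, a subunit of a histone acetyltransferase complex, and changed much less. Its normalized counts were 2899 (ZT0), 3128 (ZT3), 3321 (ZT6) and 3082 (ZT9) in the light phase and 2567 (ZT12), 2289 (ZT15), 2471 (ZT18) and 2421 (ZT21) in the dark phase. The order in time was similar, with the 4 highest values from ZT0 to ZT9, but the range was 1.45-fold, which 59.1% of all peaks and 27.1% of those with a mean of at least 1000 normalized counts reach. The cosine amplitude was 0.26 ± 0.030 with a phase of 5.07 ± 0.448 h and an adjusted P value of 0.00482 in edgeR. JTK-cycle gave 0.0260, which became 0.0826 with library totals alone and with cyclic loess, and 0.161 without the library of ZT0, ZT3, ZT6, ZT9 or ZT12. Because both peaks were counted in the same libraries, their ratio does not depend on normalization: peak 8 had 1.08 times the reads of peak 9 at ZT6 and 0.466 times at ZT18, and at the other times 0.552 (ZT0), 0.870 (ZT3), 0.981 (ZT9), 0.759 (ZT12), 0.530 (ZT15) and 0.550 (ZT21). No test was made of this ratio, which was chosen after the values were known.

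Downstream, peak 6 (chr11:98766520-98769787) covers the convergent ends of Nr1d1 and Thra, with its centre in exon 8 of Nr1d1 and intron 9 of Thra, and had the largest daily range of the 18 peaks. Its normalized counts were 566 (ZT0), 1144 (ZT3), 1285 (ZT6) and 1268 (ZT9) in the light phase and 812 (ZT12), 531 (ZT15), 390 (ZT18) and 416 (ZT21) in the dark phase. Values from ZT3 to ZT9 differed little from each other and were all above 1000, whereas ZT0 was close to ZT15. The interval at ZT6 was 1218 to 1356 and that at ZT18 was 353 to 432. The ratio of 3.29 was reached by 0.923% of all peaks. The amplitude was 0.94 ± 0.055 and the phase 6.90 ± 0.223 h, with an adjusted P value of 1.74e-05 in edgeR. JTK-cycle gave 0.000744, the smallest value possible with 8 libraries and 15 combinations, shared by 508 peaks of the table, and the same LAG of 7.5 h as for peak 7. In the neighbouring peak 5 (chr11:98765276-98766317), in intron 9 of Thra, the normalized counts were 501 (ZT0), 643 (ZT3), 680 (ZT6) and 667 (ZT9) in the light phase and 514 (ZT12), 439 (ZT15), 405 (ZT18) and 460 (ZT21) in the dark phase. Highest over lowest was 1.68, the amplitude 0.38 ± 0.029 and the phase 6.06 ± 0.291 h, with adjusted P values of 0.00314 by edgeR and 0.00595 by JTK-cycle. Benjamini-Hochberg adjustment of the JTK P values over all peaks left no peak of the table under 0.05. The adjusted value, q, was 0.0968 for peak 6, 0.128 for peaks 5 and 8, and 0.224 for peaks 7 and 9.

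**Figure D1:**
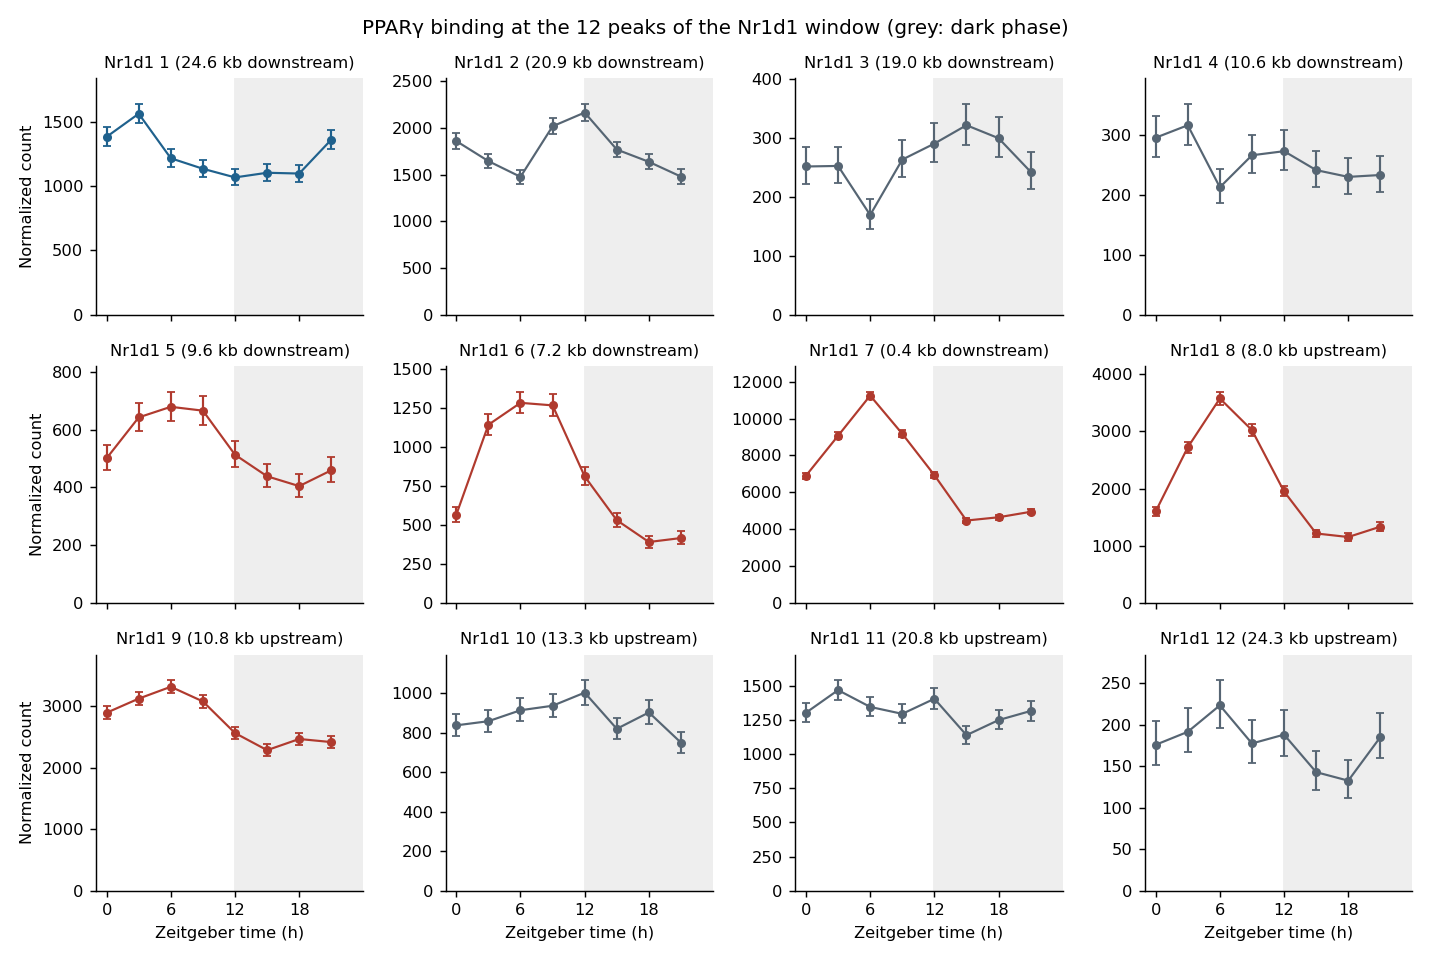
Normalized count (linear axis from 0) against Zeitgeber time (h) for the 12 peaks of the Nr1d1 window, 1 library per point, with 95% Wilson intervals for counting error; red marks a JTK call, blue a call by the cosine alone and grey no call, and titles give the distance of the peak's centre from the Nr1d1 start site. Peaks 5 to 9 are highest at ZT6, peak 7 at 11244 normalized counts, as is the weak peak 12, which was not called, at 223.

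The 4 peaks at the far side in Thra did not share this course. Thra encodes the thyroid hormone receptor α, and peak 1 (chr11:98749686-98751804) in its intron 1 had normalized counts of 1383 (ZT0), 1563 (ZT3), 1216 (ZT6) and 1134 (ZT9) in the light phase and 1067 (ZT12), 1103 (ZT15), 1097 (ZT18) and 1361 (ZT21) in the dark phase. It was highest around the onset of the light phase, with a phase of 1.28 ± 0.726 h, an amplitude of 0.24 ± 0.046 and an adjusted P value of 0.0187 in edgeR. JTK-cycle gave 0.0826 for it, but 0.0260 with library totals alone or with cyclic loess, 0.0440 with a period of 24 h only and 0.0417 without the library of ZT15 or ZT18. The edgeR call of peak 1 was lost without the library of ZT12 (0.0516) or ZT18 (0.0566). With this peak, 6 of 12 peaks of the Nr1d1 window passed the cosine test, compared with 13.4% of all peaks. The share over all peaks fell to 4.64% without the library of ZT18, 5.65% without ZT15, 6.48% without ZT6, 8.49% without ZT9 and 8.62% without ZT12, while 5 or 6 peaks of the window passed in each of these fits. It rose to 17% without ZT3, where 6 peaks of the window passed. Without ZT0 it was 13.3%, with 7 peaks of the window passing, and without ZT21 it was 13.1%, with 6.

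Peak 2 (chr11:98753350-98755619), in intron 2 of Thra, had its lowest normalized counts at ZT6 and ZT21, 1475 and 1477 with overlapping intervals, and its highest, 2163, at ZT12. Peak 3 (chr11:98755787-98756930), in intron 3, was lowest at ZT6, with 169, and highest at ZT15, with 321, a 1.90-fold range. Peak 4 (chr11:98764427-98765062), at the end of Thra, had its lowest value at ZT6, 213, and its highest, 316, at ZT3. None of the 3 passed either test: the adjusted P values by edgeR were 0.258, 0.130 and 0.656, and those by JTK-cycle were 1, 0.212 and 1. Peak 2 was called by edgeR without the library of ZT0 (0.0484) and peak 3 by JTK-cycle without that of ZT3 (0.0417). Peak 4 ends 213 bases before peak 5 begins, and peak 5 had 3.20 times the reads of peak 4 at ZT6 and 1.70 times at ZT0, the extremes of this ratio. This pair was also chosen after the values were known, and no test was made of it.

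On the Msl1 side, 3 further peaks did not pass either test. Peak 10 (chr11:98787731-98789689) had between 749 normalized counts at ZT21 and 1002 at ZT12. Peak 11 (chr11:98794532-98797773) covers the start site of Msl1 and was nearly level, from 1137 at ZT15 to 1466 at ZT3, a range of 1.29 that 82.9% of all peaks reach. The weakest peak of the window, peak 12 (chr11:98799456-98799916) in Msl1, had between 133 at ZT18 and 223 at ZT6, with adjusted P values of 0.145 by edgeR and 0.0826 by JTK-cycle. Each was called by JTK-cycle when 1 library was left out, peak 10 without ZT15, peak 11 without ZT12 and peak 12 without ZT9, all at 0.00595. Over the window, 6 of 12 peaks had a highest value of at least 1.5 times the lowest, compared with 52.4% of all peaks, so that the share of peaks with such a range was not above the background. The median relative amplitude in JTK-cycle was 16.4% of the mean, compared with 10.9% over all peaks.

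**Figure D2:**
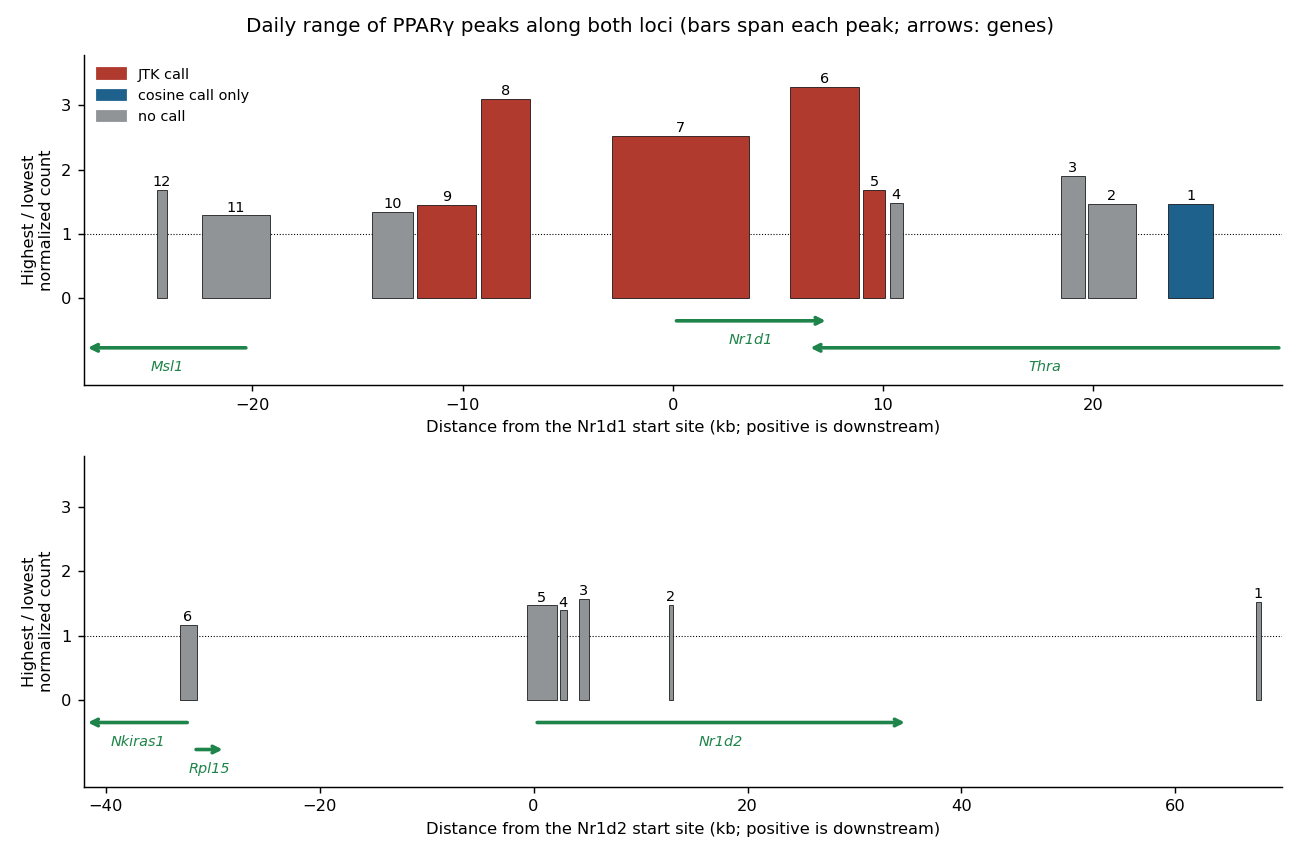
Highest over lowest normalized count of each peak (vertical axis, linear from 0, dotted line at 1) against the distance from the start site in kb, with Nr1d1 above and Nr1d2 below; a bar spans its peak, colours give the calls, and green arrows are genes in their direction of transcription. The called peaks 5 to 9 of Nr1d1 form 1 block around the gene, with ratios up to 3.29, while the Nr1d2 peaks reach 1.57 at most.

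At Nr1d2, the strongest peak was again that of the start site, peak 5, centred 0.759 kb into the gene in intron 1, with 53.3% of the mean normalized count of the window. Its normalized counts were 1532 (ZT0), 1488 (ZT3), 1886 (ZT6) and 1780 (ZT9) in the light phase and 1585 (ZT12), 1282 (ZT15), 1493 (ZT18) and 1322 (ZT21) in the dark phase. The 2 highest values, at ZT6 and ZT9, lay in the light phase, and the interval at ZT6 (1804 to 1971) did not meet that at ZT15 (1215 to 1353). The cosine had an amplitude of 0.20 ± 0.066 and a phase of 6.95 ± 1.23 h, and its adjusted P value was 0.0596 in edgeR. JTK-cycle gave 0.915. The cosine call was gained with DESeq2's likelihood ratio test (0.0440) and in edgeR without the library of ZT3 (0.0248), which was the lowest of the values from ZT0 to ZT12. The share of all peaks called was also higher in these fits, 15.1% with DESeq2's test and 17% without ZT3, compared with 13.4% in the main fit.

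The other peaks of the Nr1d2 window were weak or level. Peak 6 (chr14:18270602-18272188) lies 32.3 kb upstream on the shared promoter of the ribosomal protein gene Rpl15 and Nkiras1, and had 771 normalized counts at ZT3 and 902 at ZT12 as its extremes, a range of 1.17 that 96.8% of all peaks reach. In intron 1 of Nr1d2, peak 4 (chr14:18236026-18236633) ranged from 181 at ZT3 to 252 at ZT9, and peak 3 (chr14:18233942-18234876), which holds the closest DR1, from 128 at ZT3 to 201 at ZT18. Peak 3 was thus highest in the dark phase, with a phase of 18.1 ± 1.67 h and adjusted P values of 0.294 by edgeR and 0.212 by JTK-cycle. Peak 2 (chr14:18226113-18226481), further into intron 1, ranged from 72.3 at ZT3 to 107 at ZT0, and its intervals at these times overlapped (57.8 to 90.5 and 88.6 to 130). Peak 1 (chr14:18171102-18171615), 67.7 kb downstream of the start site and beyond the gene, ranged from 64.7 at ZT3 to 98.4 at ZT15, with overlapping intervals of 51.0 to 82.0 and 81.1 to 119. Peaks 1 and 2 had mean normalized counts of 82.4 and 86.0, the lowest of the 18 peaks. JTK-cycle called peak 1 with cyclic loess (0.0260) and without ZT0 or ZT18, peak 4 without ZT9 or ZT15 and peak 6 without ZT15, each of these at 0.0417. By the edgeR cosine, 0 of 6 peaks passed, with 1 under an unadjusted P value of 0.05, compared with 31.3% of all peaks and with 8 of 12 at Nr1d1. A range of at least 1.5 was present in 2 of 6, compared with 52.4% of all peaks, and the median relative amplitude was 12.5%, compared with 10.9% over all peaks.

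**Figure D3:**
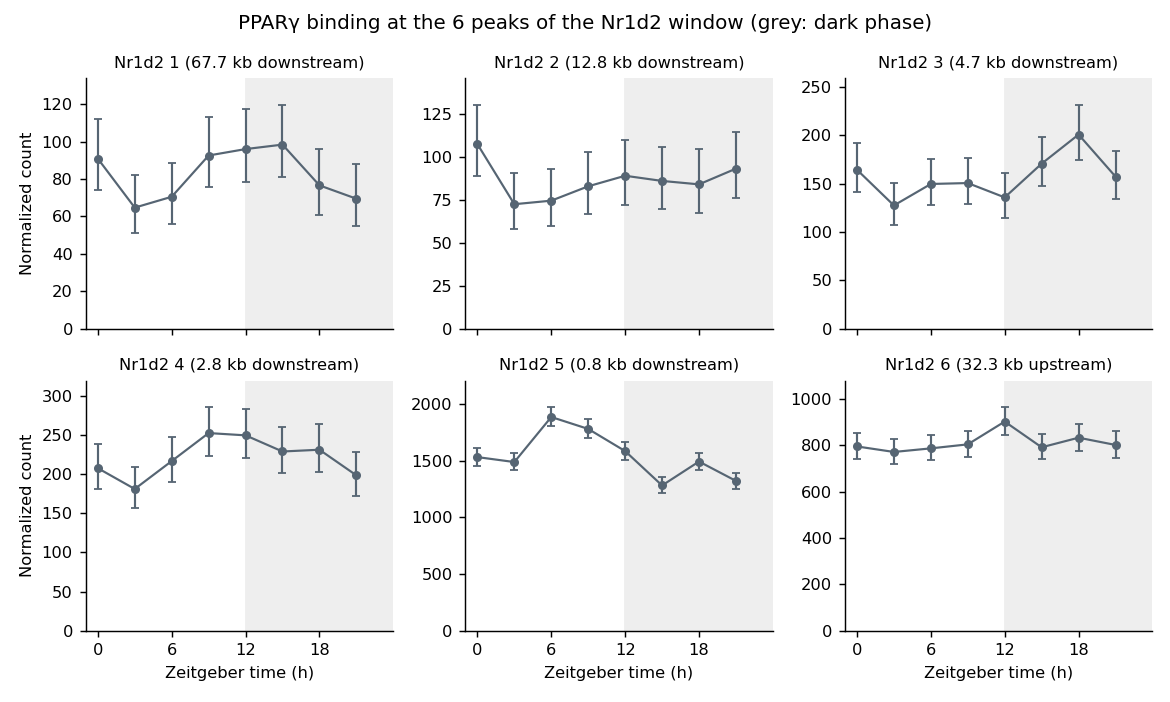
Normalized count (linear axis from 0) against Zeitgeber time (h) for the 6 peaks of the Nr1d2 window, 1 library per point, with 95% Wilson intervals for counting error; all are grey as none was called. Peak 5 is highest at ZT6 with 1886 normalized counts, and peak 6 stays between 771 and 902.

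The 2 loci were compared by the ratio of their summed reads within each library, which normalization does not change. This ratio was 6.41 (ZT0), 8.50 (ZT3), 8.06 (ZT6) and 7.37 (ZT9) in the light phase and 6.27 (ZT12), 5.45 (ZT15), 5.00 (ZT18) and 5.73 (ZT21) in the dark phase. The ratio was thus highest from ZT3 to ZT9, and at ZT3 it was 1.70 times that at ZT18. A 24-h cosine of the log2 ratio had an amplitude of 0.35 ± 0.032 and a maximum at 5.38 ± 0.345 h, and by an exact permutation test over all 40320 orders of the 8 libraries P was 0.00198. The smallest P value that this test can give is 0.000397. With the start-site peaks alone the exact permutation P value was 0.000794 and the amplitude 0.47, and their ratio lay between 6.09 at ZT3 and 3.11 at ZT18. Summed normalized counts went from 14466 at ZT15 to 25660 at ZT6 at Nr1d1 (amplitude 0.43 ± 0.024, phase 6.03 ± 0.212 h) and from 2641 at ZT21 to 3183 at ZT6 at Nr1d2 (0.10 ± 0.046, 8.44 ± 1.72 h). A ratio within a library does not remove a difference in enrichment between libraries. The top decile of peaks by reads held 48.30% of a library's reads in peaks at ZT6 and 44.45% at ZT18, the extremes. The Nr1d1 window holds stronger peaks than the Nr1d2 window, and how far enrichment enters their ratio was not tested. The windows were chosen with earlier results of these data known.

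**Figure D4:**
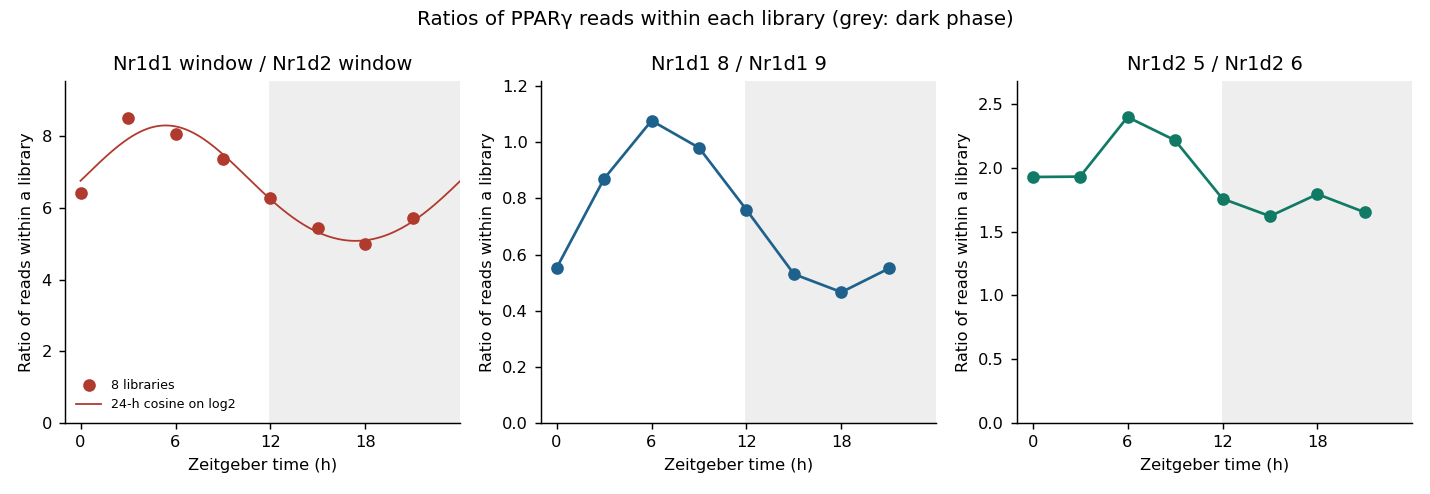
Ratio of reads within a library (linear axis from 0) against Zeitgeber time (h), for the summed Nr1d1 over Nr1d2 windows with the fitted 24-h cosine (left), for Nr1d1 peak 8 over peak 9 (middle) and for Nr1d2 peak 5 over peak 6 (right); each point is 1 library. The first ratio moves between 5.00 and 8.50, the second between 0.466 and 1.08 and the third between 1.62 and 2.40.

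The other peaks at Nr1d1 followed the course of the start-site peak to different degrees. Over the 8 libraries, which all peaks share, Pearson's r of log2 normalized counts with peak 7 was 0.980 for peak 8, 0.967 for peak 5, 0.960 for peak 9 and 0.937 for peak 6. It was 0.805 for peak 12, 0.643 for peak 11, 0.472 for peak 10, 0.282 for peak 1, 0.236 for peak 4, 0.0561 for peak 2 and -0.713 for peak 3, so that the values formed a gradient. The start-site peak of Nr1d2 had an r of 0.850 with that of Nr1d1, although its amplitude was smaller. These are descriptions without a test. Outside the windows, 904 of 17383 peaks with a mean of at least 500 normalized counts had an r of at least 0.9 with Nr1d1 peak 7, and 96 had one with Nr1d2 peak 5. The 5 most alike Nr1d1 peak 7 were nearest to Agpat2, an enzyme of triglyceride synthesis (r = 0.992), Aqp7, a glycerol channel of adipocytes (0.991), Col27a1 (0.991), Caprin1 (0.991) and Hoxc4 (0.991), each highest at ZT6. Their daily ranges were 1.39, 1.60, 1.38, 1.31 and 1.46, compared with 2.52 at Nr1d1. Those most alike Nr1d2 peak 5 were nearest to Mesd (0.965), Mir7227 in intron 4 of Arid1a (0.962), Ankrd44 (0.960), Clic5 (0.959) and Gm17767 (0.959).

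The other clock genes give the setting for these values. Over 6 lists of clock and corepressor genes (22 genes), 46 of 139 peaks assigned to them within 100 kb oscillated by JTK-cycle, 27 with a light-phase LAG and 19 with a dark-phase LAG, a share of 33.1% beside 11.6% of all peaks (5.96% light phase, 5.67% dark phase), against which the counts of each list below are to be read. Of the activators that drive the REV-ERB genes, 7 of 16 peaks oscillated, 5 of 12 at Arntl and 2 of 3 at Npas2. Of these, 6 had a LAG of 0 h, the boundary of the phases, which counts as light phase here. By the edgeR cosine 10 of 12 peaks at Arntl passed, compared with 13.4% of all peaks. The median relative amplitude was 33.7% at Arntl and 36.9% over the activators, above the 16.4% of the Nr1d1 window. It was 18.1% for the D-box factors and between 11.3% and 13.6% for the other lists. The strongest peak of Npas2 went from 761 normalized counts at ZT15 to 2448 at ZT0 (LAG 0 h, JTK adjusted P = 0.0260), while that of Arntl, which was not among those called, ranged from 1159 to 1687 and that of Clock from 1406 to 1706, with JTK adjusted P values of 1 and 0.212. Rora and Rorb encode receptors that compete with REV-ERB for the same element, and 5 of their 20 peaks were called, 4 at Rora in the dark phase and 1 at Rorb in the light phase. The strongest peak of Rorb was lowest at ZT15, with 1022 normalized counts, and highest at ZT6, with 1601 (LAG 4.5 h, JTK adjusted P = 0.0260), while that of Rora ranged from 731 to 944 with a JTK adjusted P value of 1.

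Period and cryptochrome genes, the other repressors of the clock, had 7 of 20 peaks called (35.0%, beside 11.6% of all peaks), 6 in the dark phase. The exception with a light-phase LAG was Cry2, whose strongest peak had its minimum of 3107 at ZT18 and its maximum of 4921 at ZT6 (LAG 7.5 h, JTK adjusted P = 0.000744). That of Per2 was lowest at ZT3, with 2440, and highest at ZT12, with 3728 (LAG 12 h, 0.0260 in JTK-cycle). D-box factors had the highest share of these lists, 18 of 30 peaks, with 16 in the light phase, where 5.96% of all peaks were called. The single gene Hlf gave 10 of the 18, from its 15 peaks, all 10 with a light-phase LAG. At Tef 3 of 5 peaks were called, but not the strongest (JTK adjusted P = 0.0826). Dbp went from 2885 at ZT18 to 5487 at ZT6 (LAG 9 h, JTK adjusted P = 0.00595), a 1.90-fold range compared with 2.52 at the start site of Nr1d1, while the strongest peak of Nfil3, a repressor at D-boxes, ranged from 7305 to 8427 with a JTK adjusted P value of 1, although 4 of its 9 peaks were called. Of the other clock repressors 3 of 7 peaks were called, among them that of Ciart, from 843 at ZT0 to 1861 at ZT12 (LAG 12 h, JTK adjusted P = 0.00595).

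The corepressor partners of REV-ERB had 6 of 46 peaks called, 1 in the light phase and 5 in the dark phase, a share of 13.0% that lies near the background of 11.6%. The strongest peaks of Ncor1 (1715 to 2065 normalized counts), Hdac3 (359 to 463), Tbl1x (1540 to 1734) and Gps2 (363 to 457) each had a JTK adjusted P value of 1, and that of Tbl1xr1 (2734 to 3826) had one of 0.0826; the called peaks were weaker ones at Tbl1xr1 (3), Ncor1 (2) and Tbl1x (1). Of the genes that neighbour Nr1d1 and Nr1d2 (Thra, Thrb, Msl1, Rpl15, Nkiras1 and Top2b), 3 of the 40 peaks outside both windows were called. Thrb, the other thyroid hormone receptor gene, lies near Nr1d2, and the strongest of its peaks was level, from 2794 at ZT9 to 3132 at ZT12.

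**Figure D5:**
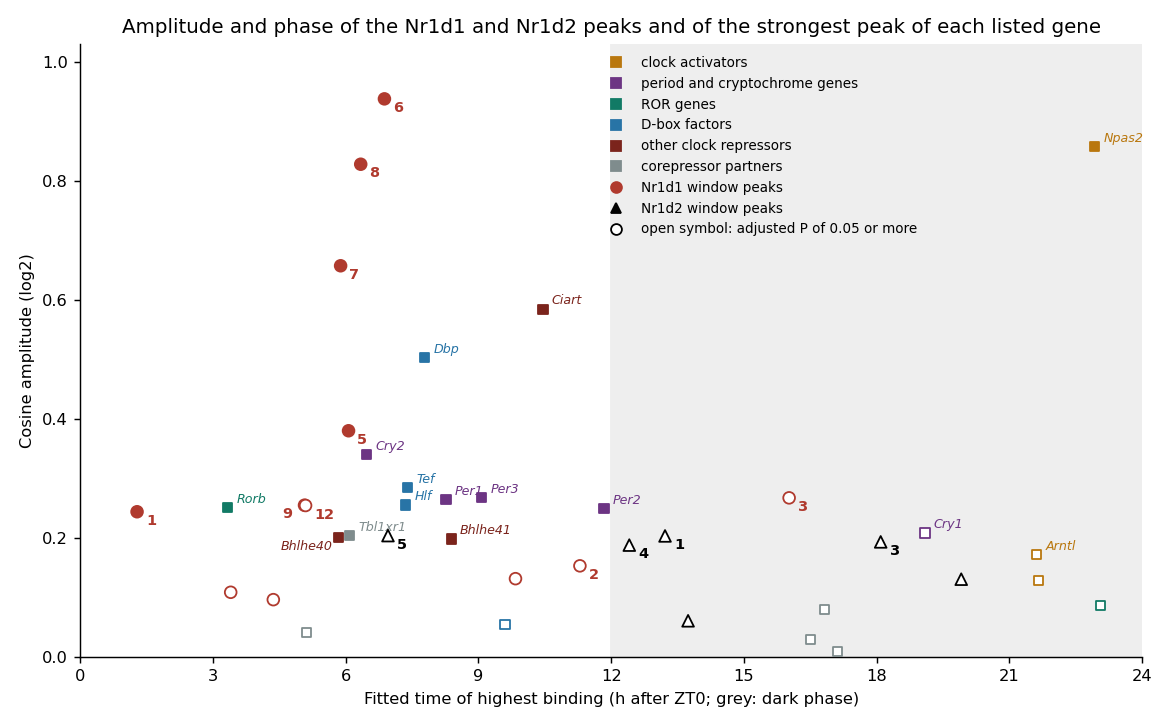
Cosine amplitude (log2, linear axis from 0) against the fitted time of highest binding (h after ZT0) from the edgeR fit, for all Nr1d1 (circles) and Nr1d2 (triangles) peaks, numbered, and for the strongest peak of each listed gene (squares); open symbols had an adjusted P value of 0.05 or more, and peaks with an amplitude under 0.15 are not labelled. Nr1d1 peaks 6, 8 and 7 have amplitudes of 0.94, 0.83 and 0.66 in the middle of the light phase. Among the strongest peaks of the listed genes only that of Npas2, near ZT0, lies above peak 7. Weaker peaks of the listed genes are not drawn.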

How the data were processed

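PPARγ ChIP-seq libraries of iBAT at 8 time points were used; an input library of ZT12 had no matched column and was left out. According to the methods and processing notes, the authors mapped reads to mm10 with BWA 0.7.17, called peaks with MACS2 2.1.2 in each library, retained those found in 6 or more libraries and obtained the reads of each peak with HTSeq 1.99.2. The deposited values are these counts, not normalized. The handling of duplicate reads, which would change the counts, is not given in the sources used here.

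From the counts, TMM factors and the test of a 24-h cosine (glmQLFit and glmQLFTest, Benjamini-Hochberg over all 66066 peaks, common dispersion 0.0116, 5 residual degrees of freedom) were calculated with edgeR 4.0.16 in R 4.3.3. With 1 library per time point, the spread in this test is the scatter around the cosine. JTK-cycle was calculated with an own implementation in Python 3.11.15 (numpy 2.4.6, pandas 2.3.3, scipy 1.17.1, statsmodels 0.14.6), with LAG in steps of 1.5 h. Amplitudes with SE are from least squares on log2 normalized counts. Both tests were tested on simulated data. Peaks were assigned to the nearest start of 45756 curated RefSeq transcripts of GRCm38, and motifs were sought on either strand. Every peak of both windows is named; of each listed gene, the peak with the highest mean; and the 5 most alike peaks. The members and lists were chosen with earlier results of these data known, and some listed genes are not reported here. Alternatives were other scalings, DESeq2 1.42.0, limma 3.58.1 (cyclic loess), a period of 24 h, filters, thresholds and each library left out.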

Additional observations from a re-analysis of the deposited data

How the results depend on the processing

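The 5 JTK calls at Nr1d1 stayed 5 in number with library totals, DESeq2's size factors, upper-quartile factors, cyclic loess and a minimum mean count of 100. With library totals and with cyclic loess they were not the same peaks. There peak 9 lost its call (JTK adjusted P = 0.0826) and peak 1 gained one (0.0260). The minimum mean count left the JTK values of these peaks unchanged. The calls became 6 with a period of 24 h only, where 15% of all peaks were called, and 3 at a threshold of 0.01, where 4.66% were. With 1 library left out they lay between 3 (without ZT6, where 11.8% of all peaks were called) and 7 (without ZT15, 11.2%). The JTK share over all peaks lay between 11.2% (without ZT15) and 16.4% (without ZT3) in these fits. At Nr1d2, JTK-cycle called 1 peak with cyclic loess, where 11% of all peaks were called. With 1 library left out it called between 0 and 2 there (1 without ZT0, ZT9 or ZT18 and 2 without ZT15). The cosine calls ranged from 5 to 7 at Nr1d1 and from 0 to 1 at Nr1d2 (1 without ZT3) with 1 library left out, and DESeq2's likelihood ratio test gave 1 at Nr1d2. The cosine share over all peaks lay between 4.64% (without ZT18) and 17% (without ZT3) with 1 library left out, and was 15.1% with DESeq2's test. The difference in course between the loci gave exact permutation P values from 0.000397 to 0.00952 with 1 library left out and 0.975 with a period of 12 h. The 46 of 139 list peaks became 18 of 139 at a threshold of 0.01, where 4.66% of all peaks were called. With start sites within 10 kb, which leaves fewer peaks, 16 of 53 were called. With 1 library left out, 32 to 43 of 139 were. Where no reason is given, the cause was not tested. Of 518 values for single peaks under alternatives, 484 kept their side of the threshold, 16 lost and 18 gained a call, and 0 changed the phase of a call by over 6 h. Not all of the 484 were free to change. The threshold of 0.01 cannot add a call, and the minimum mean count left the JTK values as they were. No paired analysis was possible because each time point has 1 library. Depth limits the weak peaks: in Nr1d2 peaks 1 and 2, with fewer than 100 normalized counts on average, the 95% counting intervals of the highest and the lowest time point overlapped.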
